A study of Mus musculus with 10 samples.

Results

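The genes described here encode the RNA polymerases, the Mediator complex and the general transcription factors, the machinery that starts and carries out transcription. Members were the mouse protein-coding genes whose symbol begins with Polr1, Polr2, Polr3, Gtf2 or Gtf3, begins with Med, Taf or Supt followed by a digit, or is Tbp. This rule took 114 of the 21774 protein-coding genes on the main chromosomes of the RefSeq annotation. Each was looked up by name in the deposited lists of ARID2-enriched transcription start sites (TSSs).

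The study followed ARID2, the subunit that defines the PBAF form of the SWI/SNF chromatin remodeler, through late male meiosis. CUT&RUN, in which an antibody tethers a nuclease to its target and the released DNA is sequenced, was performed on spermatogenic cells of CD1 mice. The pups were gavaged with WIN 18,446, an inhibitor of retinoic acid synthesis, at 100 µg per g of body weight from P1 to P10, P meaning postnatal day. Retinoic acid, 10 µl at 10 µg per µl, was injected at P11 and set off spermatogenesis in synchrony. Cells enriched for late prophase-I and metaphase spermatocytes were taken at P28 or P28.5, which is 17 or 17.5 days after the injection. Each age had 2 ARID2 libraries, 2 BRG1 libraries and 1 control without IgG, and the labels name no mutant genotype. The BRG1 libraries were not analysed here.

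RNA polymerase I transcribes ribosomal RNA, polymerase II messenger RNA, and polymerase III transfer RNA and other short RNAs. At a polymerase II promoter, TFIID, which holds the TATA-binding protein TBP and its TAF partners, nucleates assembly with TFIIA, TFIIB, TFIIE, TFIIF and TFIIH, and Mediator relays signals from activators to the polymerase. Male germ cells also use paralogs of these factors, among them TAF4B, TAF7L, the TFIIA-like protein encoded by Gtf2a1l, and the TBP-like protein encoded by Tbpl1.

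Each list gives a position and a gene symbol for every TSS in the cluster with high ARID2 signal, 7144 distinct positions at P28 and 5193 at P28.5. The lists were made from averaged libraries and carry no signal value, depth, strand or replicate spread. A gene is therefore either listed or not, the lists allow no replicate check of the difference between the ages, and no test was run. Support for the lists also differed by age. In the study's reporting summary, far fewer ARID2 peaks were called at P28.5 than at P28, and a smaller share of listed TSSs overlapped one. Within 200 bp of an annotated plus-strand 5′ end lay 80.9% of positions at P28 and 94.5% at P28.5. Listing at a single age is to be read with these differences in mind. Signal tracks were not used here. Of the P28 positions, 45.1% equalled an annotated plus-strand 5′ end and 0.0420% a minus-strand 5′ end. At P28.5 these shares were 51.4% and 0.0578%. The lower-coordinate end of a minus-strand transcript, which is its 3′ end, was matched by a further 10.3% of positions at P28 and 1.41% at P28.5. A minus-strand gene that was not listed thus gives no reading of its own promoter, and the members are described by strand, 55 on the plus and 59 on the minus strand.

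By name, 33 of the 114 members were listed at P28, which is 28.9%, beside 16.8% of all protein-coding genes. At P28.5, 27 members (23.7%) were listed, beside 11.6% of all genes. Both lists held 19 members (16.7%), beside 8.48% of all genes. At least 1 list held 41 members (36.0%), beside 19.9% of all genes. The shared members made up 57.6% of the earlier group and 70.4% of the later one, beside 50.5% and 73.1% over all protein-coding genes.

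Nearly all listed members lay on the plus strand. There, 31 of 55 members (56.4%) were listed at P28 beside 26.0% of all plus-strand genes, and 26 (47.3%) at P28.5 beside 20.4%. Both ages listed 18 plus-strand members (32.7%) beside 14.8%, and at least 1 age listed 39 (70.9%) beside 31.6%. On the minus strand 2 of 59 members were listed at P28, where 7.61% of all minus-strand genes were, and 1 at P28.5, where 2.86% were. That same member, Med26, was the minus-strand member listed at both ages, against a background of 2.14%. With the lists joined, 2 minus-strand members (3.39%) were named in at least 1 of them, against 8.34%.

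Shares were also taken in 2 other families of housekeeping genes. Of 46 plus-strand spliceosome genes, picked by symbol, the P28 list held 63.0%, the P28.5 list 67.4% and both lists 54.3%. Of 33 plus-strand translation initiation genes, these shares were 42.4%, 51.5% and 39.4%. Plus-strand members thus lay between these families at P28 and below both at P28.5 and in the shared group, with no test of the difference. Of 36 minus-strand spliceosome genes, the earlier list held 25.0% and the later one 16.7%, more than of minus-strand members. Of 23 minus-strand translation initiation genes, none was listed. These minus-strand shares by name do not compare promoters either.

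**Figure D1:**
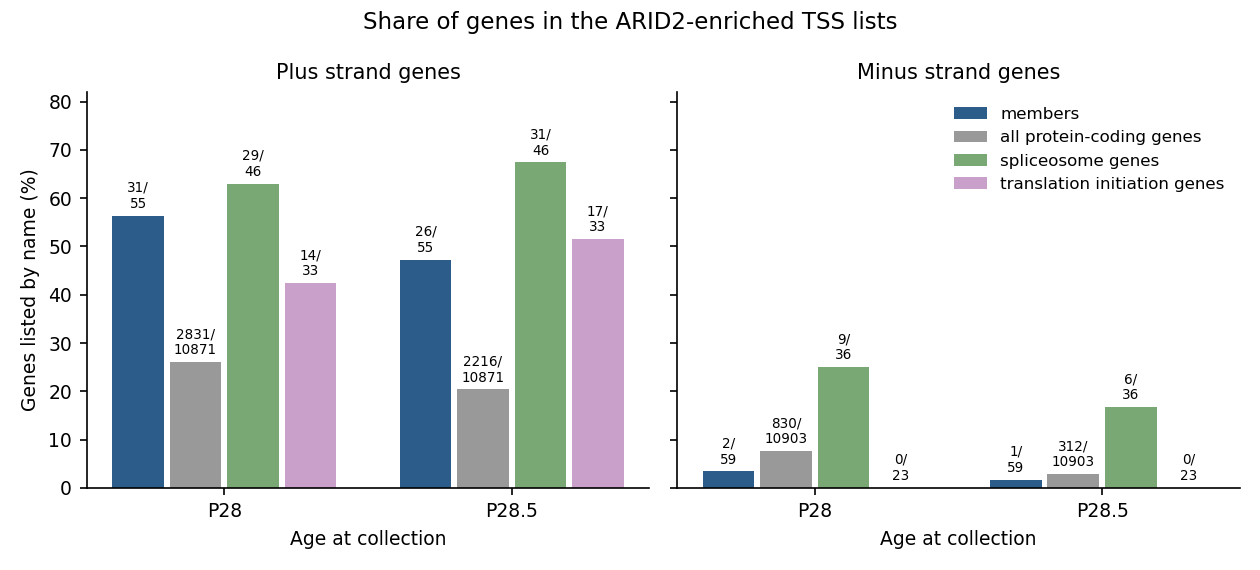
Bars give the percent of genes listed by name at each age (x axis), for plus-strand genes on the left and minus-strand genes on the right, with the number listed over the number of genes above each bar. Plus-strand members stand at 56.4% and 47.3%, above all plus-strand genes at 26.0% and 20.4%, while minus-strand members are at 3.39% and 1.69%.

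Promoter sequences put these listings in context, since most listed positions lay at or beside a member's own start. RefSeq promoters of GRCm38.p6, the assembly behind mm10, were matched for 99 of the 114 members. The 250 bases before the start site are printed for 6 members listed at both ages, Polr1a, Polr2b, Polr3e, Taf1d, Med7 and Supt3, none of which had fewer positions than another such member of its complex, and for Tbp and Polr2a. Capitals mark exact matches, on either strand, to any of 8 motifs. The first was TATAAA, the core of the promoter element that TBP binds, and the second was CCAAT, which NF-Y recognises. The letters GGGCGG stood for the GC box bound by Sp1 and its relatives, and CCGGAA for the core of an ETS site. The remaining letters were AAGATGG from the motif of YY1, TGACGTCA from the cAMP response element, GCATGCGC from the motif of NRF1 and TAACNG for the core of a MYB site.
Polr1a: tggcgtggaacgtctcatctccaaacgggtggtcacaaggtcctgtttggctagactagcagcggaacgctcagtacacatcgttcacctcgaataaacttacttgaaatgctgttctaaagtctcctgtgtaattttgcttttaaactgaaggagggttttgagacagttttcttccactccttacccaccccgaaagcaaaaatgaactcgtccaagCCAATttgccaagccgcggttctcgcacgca
Polr2b: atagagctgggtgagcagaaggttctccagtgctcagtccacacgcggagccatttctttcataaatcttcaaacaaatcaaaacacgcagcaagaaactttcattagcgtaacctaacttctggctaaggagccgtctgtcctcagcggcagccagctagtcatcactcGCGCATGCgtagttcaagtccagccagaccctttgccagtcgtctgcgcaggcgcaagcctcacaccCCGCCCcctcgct
Polr3e: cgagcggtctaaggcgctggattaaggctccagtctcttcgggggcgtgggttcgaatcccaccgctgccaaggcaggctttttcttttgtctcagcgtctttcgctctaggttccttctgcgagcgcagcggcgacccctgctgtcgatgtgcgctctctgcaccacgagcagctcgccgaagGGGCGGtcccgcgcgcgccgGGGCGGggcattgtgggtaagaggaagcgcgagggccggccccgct
Taf1d: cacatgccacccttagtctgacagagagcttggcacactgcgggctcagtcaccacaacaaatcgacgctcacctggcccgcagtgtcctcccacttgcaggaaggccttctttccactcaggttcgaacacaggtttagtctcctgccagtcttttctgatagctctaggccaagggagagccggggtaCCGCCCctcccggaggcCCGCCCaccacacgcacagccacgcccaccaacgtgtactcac
Tbp: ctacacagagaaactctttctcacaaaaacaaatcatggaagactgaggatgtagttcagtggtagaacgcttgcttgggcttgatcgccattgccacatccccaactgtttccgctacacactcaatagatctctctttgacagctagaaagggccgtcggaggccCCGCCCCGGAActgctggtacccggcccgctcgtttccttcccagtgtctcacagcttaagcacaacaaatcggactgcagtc
Med7: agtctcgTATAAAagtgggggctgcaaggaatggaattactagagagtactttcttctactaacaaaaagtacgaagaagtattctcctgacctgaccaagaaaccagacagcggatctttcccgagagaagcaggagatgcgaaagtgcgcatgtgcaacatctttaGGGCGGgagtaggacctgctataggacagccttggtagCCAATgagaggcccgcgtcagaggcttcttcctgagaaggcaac
Supt3: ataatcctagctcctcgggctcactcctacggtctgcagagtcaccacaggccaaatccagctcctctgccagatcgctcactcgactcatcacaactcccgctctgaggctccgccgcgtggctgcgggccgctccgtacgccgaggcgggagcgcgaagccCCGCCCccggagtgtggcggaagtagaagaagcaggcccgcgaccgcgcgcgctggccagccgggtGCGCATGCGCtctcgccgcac
Polr2a: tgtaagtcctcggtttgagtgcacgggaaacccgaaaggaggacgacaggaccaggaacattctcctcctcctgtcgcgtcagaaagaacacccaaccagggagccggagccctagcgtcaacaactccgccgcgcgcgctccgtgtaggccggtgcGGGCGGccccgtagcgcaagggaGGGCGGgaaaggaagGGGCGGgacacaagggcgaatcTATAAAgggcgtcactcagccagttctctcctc

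All of these run 5′ to 3′ and, apart from Polr2a, come from the plus strand. They cover chr6:71908803-71909052 for Polr1a, chr5:77310234-77310483 for Polr2b, chr7:120917528-120917777 for Polr3e and chr9:15305964-15306213 for Taf1d. The others cover chr17:15499638-15499887 for Tbp, chr11:46436697-46436946 for Med7, chr17:44776916-44777165 for Supt3 and, on the minus strand, chr11:69758634-69758883 for Polr2a. Taf1d, Supt3 and Med7 have several annotated starts, and their bases precede a start other than the first, so those of Taf1d lie inside the gene and those of Supt3 and Med7 reach into it. The start site after the last base was itself a listed position for Polr1a, Polr2b, Taf1d, Tbp and Med7. The nearest listed position was 5 bp from that site for Supt3 and 34 bp from it for Polr3e.

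GC boxes were the most frequent match among these sequences. Polr2a had 3, at -93, -70 and -55 counted from the start site to the first base of the match, and a TATA box at -33. Med7 had a TATA match as well, but at -243, far upstream of the usual place of a TATA box. The Supt3 promoter held overlapping NRF1 letters at -21 and -19, and Polr2b held them at -80. In Tbp a GC box at -83 and an ETS core at -78 shared 1 base. Polr1a held a CCAAT at -31 and none of the other motifs, while Polr3e and Taf1d held 2 GC boxes each and nothing else.

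**Figure D2:**
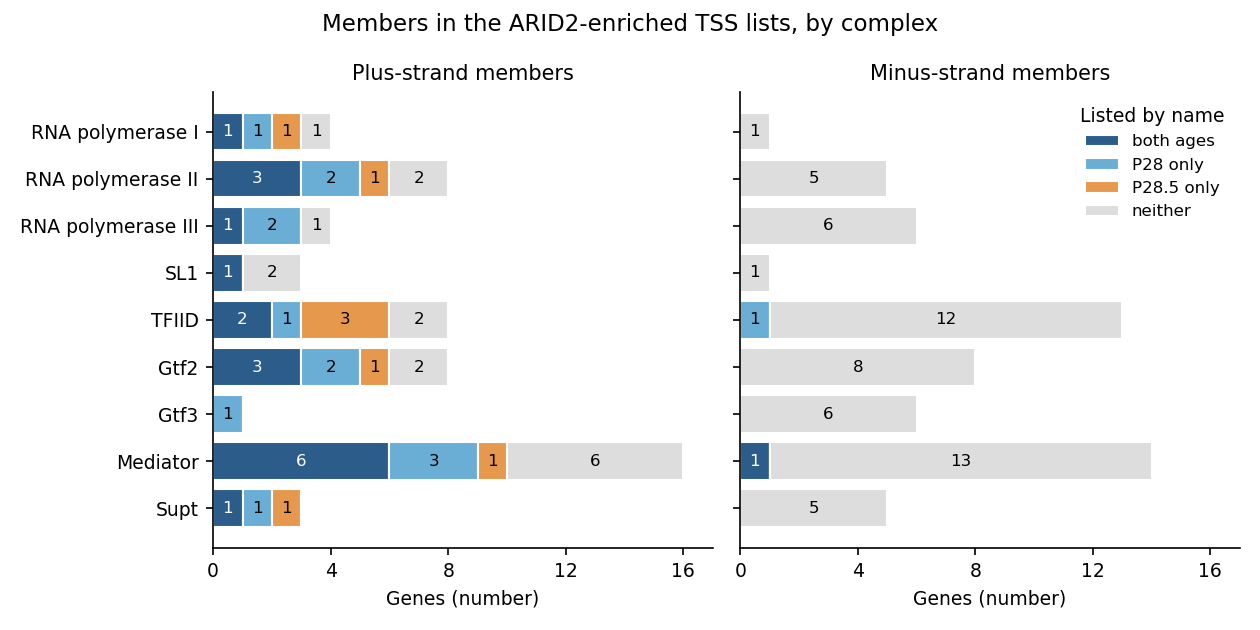
Stacked bars give the number of members of each complex (y axis) listed at both ages, at P28 only, at P28.5 only or at neither age, for 55 plus-strand members on the left and 59 minus-strand members on the right. Every complex except Gtf3 has a member listed at both ages, and the minus-strand panel holds 2 listed members.

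Counts by complex stand beside 19.9% of all protein-coding genes listed at 1 age or both, or 31.6% on the plus strand, and rest on few genes each. Polymerase I was represented by 3 of its 5 members. Polr1a, which encodes the largest subunit, was listed at both ages at 1 position, its annotated 5′ end on chromosome 6 (71909053; gene at chr6:71909053-71979435, plus strand). Polr1b, the second-largest subunit, was listed at P28 only, and at a position 12643 bp from its nearest RefSeq 5′ end, 2033 bp from a GENCODE M21 5′ end, and inside the gene. Polr1d, a subunit shared with polymerase III, was listed at P28.5 only. Polr1e, on the plus strand, was at neither age, and Polr1c, the partner of Polr1d in the shared assembly platform, lies on the minus strand.

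Polymerase II had 13 members, including the subunits shared by all polymerases, and 6 of its 8 plus-strand members were listed. Polr2b, the second-largest subunit, was listed at both ages at its only annotated 5′ end (77310484; gene at chr5:77310484-77349328, plus strand). Polr2i and Polr2j, small subunits specific to polymerase II, were also listed at both ages, each at its own 5′ end. Polr2d, which forms the stalk with the product of Polr2g, was listed at P28 only, at 3 positions 17 to 51 bp from its 5′ end. Polr2h, a shared subunit, was listed at P28 only, and Polr2c, an assembly subunit, at P28.5 only. The shared subunits Polr2f and Polr2k were the plus-strand members at neither age.

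Polr2a, which encodes the catalytic subunit with the phosphorylated tail, lies on the minus strand (chr11:69733997-69758633) and was not listed. The nearest listed position of any name was 76056 bp from its 5′ end at P28 and 76617 bp at P28.5, so no start of another gene beside it was listed either. The largest subunit of polymerase III, Polr3a, is also on the minus strand and was not listed. For it the nearest listed position was 3563 bp away at both ages.

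Of the 10 polymerase III members, 4 were on the plus strand and 3 of these were listed. Polr3e, a subunit specific to polymerase III, was listed at both ages at the same 4 positions, from 120917738 to 120917744 (gene at chr7:120917778-120947435, plus strand). These stood 34 to 40 bp upstream of its nearest RefSeq 5′ end, and 1 of them equalled a 5′ end in GENCODE M21. Polr3b, the second-largest subunit, was listed at P28 only, 1 and 139 bp from a 5′ end. Polr3f, which takes part in promoter opening, was listed at P28 only at its 5′ end, and Polr3k was at neither age. Of the Polr3 genes, Polr3e alone was listed by name at P28.5.

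SL1, the factor that places TBP at ribosomal RNA promoters, had 1 listed member of 4, too few to set apart from the 19.9% of all genes. Taf1d was listed at both ages at the same 4 positions, from 15306199 to 15306290 (gene at chr9:15305953-15316997, plus strand). The other plus-strand members of SL1, Taf1a and Taf1b, were at neither age. Taf1c lies on the minus strand.

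TFIID was the largest group after Mediator, with 21 members counted as Tbp and Taf genes, paralogs included. Tbp, which binds the TATA box and serves all 3 polymerases, was listed at P28 only, at its single annotated 5′ end (15499888; gene at chr17:15499888-15517427, plus strand). At P28.5 the nearest listed position of any name was 1794555 bp from that end, the longest such distance among the members listed at 1 age. Taf4b, the germ-cell paralog of Taf4, was listed at both ages at the same 4 positions, 14783201 to 14783245, which included both of its annotated 5′ ends (gene at chr18:14783201-14960424, plus strand). Taf15, an RNA-binding protein found with a part of TFIID, was listed at both ages at 3 positions within 5 bp of a 5′ end.

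Of the plus-strand Taf genes, 3 were found in the later list alone, too few to read a difference between the ages from. Taf5, a WD-repeat scaffold of TFIID, Taf9, a histone-fold subunit, and Taf12, another histone-fold subunit, were listed at P28.5 and not at P28. Taf9 shared the listed position 100651343 with the annotated start of Ak6. Taf10, a minus-strand histone-fold gene, was listed at P28 only, at its own 3′ end, 1444 bp from its 5′ end. Taf13 and the X-linked Taf1, the largest subunit, were plus-strand members at neither age.

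Among the Gtf2 genes, which encode the remaining polymerase II factors, 6 of 8 plus-strand members were listed and none of 8 on the minus strand. TFIIH, the factor with helicase and kinase activity, had all 3 plus-strand members that the symbol rule takes in the P28 list. Outside the rule, its plus-strand gene Ercc2 was listed at both ages, and Ercc3, Ccnh and Mnat1 were at neither. Gtf2h1 and Gtf2h5, core subunits, were listed at both ages, and Gtf2h3, another core subunit, at P28 only. Gtf2e2, the smaller TFIIE subunit, was listed at both ages (gene at chr8:33731914-33777173, plus strand). It had 4 positions at P28, from 33731914 to 33732339, and the first of these alone at P28.5.

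Gtf2b, the single-subunit factor TFIIB, was listed at P28 only, and Gtf2a2, the small TFIIA subunit, at P28.5 only at both of its 5′ ends. Gtf2a1l, the germ-cell form of the large TFIIA subunit, lies on the plus strand and was at neither age, with the nearest listed position 135369 bp away at P28. Gtf2ird2, of the TFII-I family, was likewise at neither age. Both TFIIF genes lie on the minus strand and were not listed. Of the Gtf3 genes, Gtf3a, which encodes the 5S ribosomal RNA factor TFIIIA, was listed at P28 only at its 5′ end. The 6 TFIIIC genes all lie on the minus strand, and none was listed by name.

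Mediator, with 30 members, had 11 listed by name at 1 age or both, 6 of the head, 4 of the middle module and Med26. Of all protein-coding genes, 19.9% were listed at 1 age or both. The head contacts the polymerase, and 6 of its 7 plus-strand members were listed. Med11, Med19, Med20 and Med30 were listed at both ages, each at 1 position no more than 13 bp from the 5′ end. Med27 was listed at P28 only and Med28 at P28.5 only, both at a 5′ end. Med8, the other plus-strand head gene, was at neither age.

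Of the 5 plus-strand genes of the middle module, which links head and tail, 4 were listed. Med7 was listed at both ages at 5 positions, from 46436937 to 46437221 (gene at chr11:46436936-46442721, plus strand), the most of any member listed at both ages. Med21, the partner of Med7 in a structural hinge, was listed at both ages at its 5′ end. Med10 was listed at P28 only, at 2 positions within 9 bp of a 5′ end. Med4 was named in the P28 list at a single position 35711 bp from its 5′ end, which is the annotated start of the noncoding gene Gm35450. Med9 was at neither age.

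Med26, the subunit that recruits elongation factors, was listed at both ages although it lies on the minus strand. Its single listed position was 96 bp upstream of its 5′ end and equalled no annotated start. None of the genes that the symbol rule takes from the kinase module, the tail or the scaffold was listed. Cdk8, Cdk19 and Ccnc of the kinase module lie outside the rule and are described below. Of the members, 3 of 4 in the kinase module lie on the plus strand, namely Med12, Med12l and Med13l, and in the tail 1 of 5, Med23. Med12 is X-linked, and 31.6% of all plus-strand genes were listed at either age, so these 4 genes are too few to read an absence from.

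The Supt genes encode elongation factors, a histone chaperone subunit and parts of the SAGA coactivator, and all 3 on the plus strand were listed. Supt3, a SAGA subunit, was listed at both ages at 1 position, 44777171, repeated in 3 rows, 5 bp from a 5′ end (gene at chr17:44777118-45119294, plus strand). Supt4a, the small subunit of the elongation factor DSIF, was listed at P28 only. Supt20, also of SAGA, was listed at P28.5 only, and at 7 positions it had more than any other member in either list. Its positions spanned 345 bp and took in 5 of its 9 annotated 5′ ends.

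Listed positions of members sat close to annotated starts. At P28 the members had 59 distinct positions under their names, of which 28 (47.5%) equalled an own 5′ end and 56 (94.9%) were within 200 bp of one. At P28.5 there were 54, of which 32 (59.3%) equalled a 5′ end and all lay within 200 bp. Over all protein-coding genes, 42.3% of positions at P28 and 49.3% at P28.5 equalled a 5′ end, and 79.8% and 94.6% were within 200 bp. On the plus strand the shares at a 5′ end were 49.1% and 60.4% for members, beside 50.7% and 53.7%. Those within 200 bp were 96.5% at P28, beside 89.7%, and all at P28.5, beside 96.3%. The 3 member positions farther away were those of Polr1b, Med4 and Taf10, all at P28. Most listed members had a single position, 21 of 33 (63.6%) at P28, beside 57.2% of all listed genes, and 16 of 27 (59.3%) at P28.5, beside 51.1%.

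**Figure D3:**
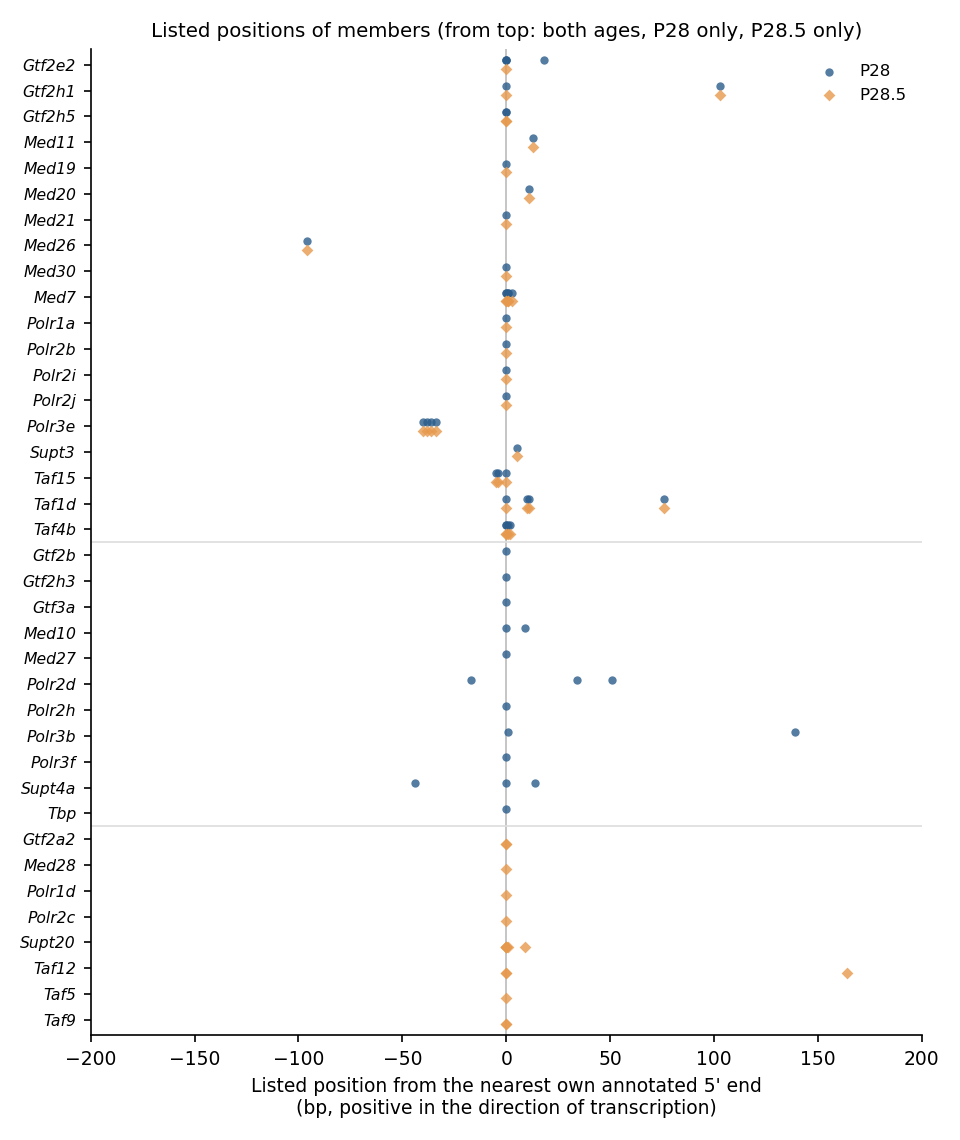
Each point is a listed position of a member (rows), placed by its distance in bp from the nearest own annotated 5′ end (x axis), as a circle for P28 and a diamond for P28.5. Most points sit at 0, all those of Polr3e and Med26 and some of Supt4a, Polr2d and Taf15 lie upstream, and the positions of Polr1b, Med4 and Taf10, at over 200 bp, fall outside the axis.

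Members listed at both ages mostly had the same positions, but most of them had a single listed position at each age, which left little room to differ. Of the 19 members listed at both ages, 18 (94.7%) had the same positions in both lists, Gtf2e2 being the exception. Over all protein-coding genes listed at both ages the share was 82.5%. Of the 22 members listed at 1 age, 14 were in the P28 list and 8 in the P28.5 list. The later list thus held 36.4% of these members, and 27.3% of all protein-coding genes listed at 1 age. On the plus strand the shares were 38.1% and 33.1%. At the age where such a member was missing, no listed position of any name lay within 2000 bp of its 5′ ends, and for protein-coding genes found in a single list, members or not, the share was likewise low, at 2.53%. For Med4 and Polr1b none lay so close at the age of listing either. The nearest was 4276 bp away, for Taf12 at P28, and the median was 128374 bp.

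Counting by position, whatever the name, brings in minus-strand members that share a promoter with a neighbour. A listed position within 2000 bp of an own 5′ end was found for 38 members (33.3%) at P28, beside 17.3% of all genes, and for 37 (32.5%) at P28.5, beside 14.8%. On the plus strand these were 29 members (52.7%) beside 25.0%, and 26 (47.3%) beside 20.9%. On the minus strand they were 9 members (15.3%) beside 9.58%, and 11 (18.6%) beside 8.62%. The P28 counts include Taf10, whose listed position was its own 3′ end, 1444 bp from its 5′ end. Med26, listed under its own name, is counted at both ages. By name or by position, 53 members (46.5%) were found at 1 age or the other, beside 24.1% of all genes.

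For 12 minus-strand members (20.3%), beside 7.13% of all minus-strand genes, the listed position bore the name of a neighbour, and the closest was 22 to 454 bp from the member's 5′ end. At both ages these were Gtf3c1, the largest TFIIIC subunit, beside D430042O09Rik, Med29, of the Mediator head, beside Paf1, and Med31, of the middle module, beside 4930563E22Rik. Polr3d, a polymerase III subunit, beside Mir320, and Taf6, a histone-fold TAF, beside Cnpy4, were also found at both. At P28 alone they were Gtf2e1, the larger TFIIE subunit, beside Rabl3, and Polr3g, another polymerase III subunit, beside Mblac2. At P28.5 alone they were Gtf3c4, of TFIIIC, beside Ddx31, Med22, of the Mediator head, beside Rpl7a, and Polr1c beside Yipf3. Polr3c, a polymerase III subunit, beside Rnf115, and Taf11, a histone-fold TAF, beside Anks1, were also found at P28.5 alone. Which of the 2 genes at such a promoter the ARID2 signal belongs to cannot be told apart from a position.

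Starts on opposite strands close to each other were common among the members. An annotated start on the other strand lay within 1000 bp for 20 of 55 plus-strand members (36.4%) and 22 of 59 minus-strand members (37.3%), beside 21.6% and 21.9% of all genes on those strands. Of the 20 plus-strand members with such a neighbour, 17 (85.0%) were listed by name at 1 age or both, and of the 35 without, 22 (62.9%) were. The same shares over all plus-strand genes were 51.1% and 26.2%. Of the 22 minus-strand members with such a neighbour, 12 (54.5%) had a listed position nearby at 1 age or both, beside 45.4% of minus-strand genes with one. Among the pairs, Gtf2h1 starts 29 bp from Hps5, Gtf2h3 17 bp from Eif2b1, a translation initiation gene, Polr2b 71 bp from Noa1 and Med20 93 bp from Bysl.

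None of the 5 X-linked members was listed by name, and no position in either list came within 2000 bp of their starts. They were Med12 and Taf1 on the plus strand, and Med14, the Mediator scaffold, Taf7l and Taf9b, paralogs of Taf7 and Taf9, on the minus strand. Of 963 X-linked protein-coding genes, the P28 list named 0.00% and the P28.5 list 0.208%, so the absence of these members was shared by nearly all genes of the chromosome.

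The 5′ ends of members were richer in CpG than those of all genes. The number of CpG dinucleotides over the number expected from base composition, in the 500 bp before and after a gene's start, had a median of 0.769 over the 114 members and of 0.516 over all protein-coding genes. Among the 39 listed plus-strand members it ran from 0.198, in Med10, to 1.09, in Polr2b, with a median of 0.787. Among the 16 plus-strand members at neither age it ran from 0.189, in Gtf2ird2, to 1.07, in Med13l, with a median of 0.700. The 2 ranges overlapped, but the groups were spread differently within them. The highest quintile of CpG content over all genes took in 19 of the 39 listed members and 1 of the 16 at neither age, and the upper pair of quintiles took in 36 and 10. With windows of 250 bp the medians stood farther apart, 0.896 and 0.679. The minus-strand members had a median of 0.779. Over all plus-strand genes the medians were farther apart, 0.738 for listed genes and 0.354 for those at neither age. The medians were 0.804 for plus-strand members listed at both ages, 0.776 for those at P28 only and 0.836 for those at P28.5 only.

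**Figure D4:**
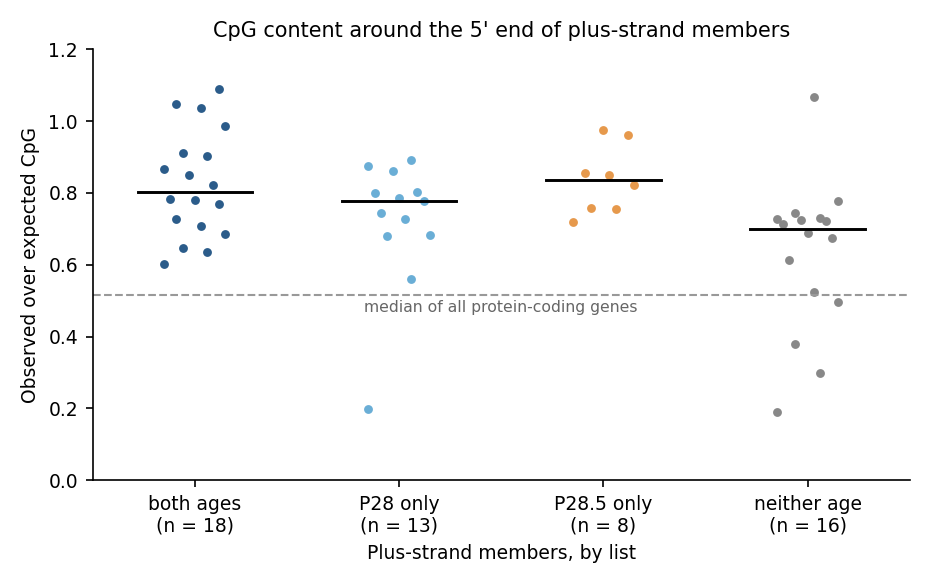
Each point is a plus-strand member, placed by its observed over expected CpG (y axis, no unit) and grouped by the lists that name it (x axis); bars are medians and the dashed line is the median of all protein-coding genes, 0.516. Medians are 0.804, 0.776 and 0.836 in the listed groups and 0.700 in members at neither age, and the ranges overlap.

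In quintiles of CpG content over all protein-coding genes, 46 of the 55 plus-strand members fell in the upper pair, 20 in the highest and 26 in the next. In the highest quintile 14 of 20 members (70.0%) were listed at P28 and 14 of 20 at P28.5, beside 46.3% and 47.1% of plus-strand genes of that quintile. In the next, 14 of 26 (53.8%) were listed at P28 and 11 of 26 (42.3%) at P28.5, beside 39.5% and 33.2%. The difference from all plus-strand genes was thus smaller within these quintiles than over all of them. The lower quintiles held 9 members, too few to read a share from.

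**Figure D5:**
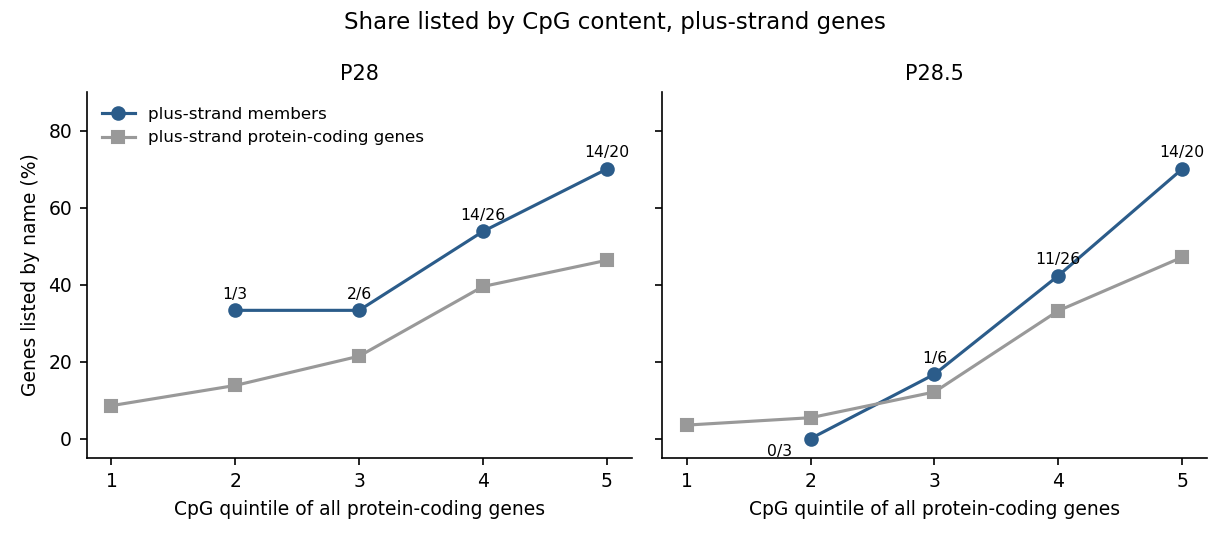
Lines give the percent of plus-strand genes listed by name (y axis) in each CpG quintile of all protein-coding genes (x axis, lowest at 1), for members and for all plus-strand genes, at each age; labels give members listed over members in the quintile. The lines of all plus-strand genes rise with CpG content to 46.3% and 47.1%, and in the highest quintile 70.0% of members were listed at each age, while members in quintiles 1 to 3 are few.

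The GC box, ETS and NRF1 letters were more frequent in promoters of members, listed or not, than in all promoters. The windows ran from 250 bases before to 50 after each start, and some genes had several. All promoters came from 27025 genes, more than the 21774 protein-coding genes, whereas every member is protein-coding. Shares over promoters of protein-coding genes alone were not taken. GGGCGG was present in 28 of 43 promoters of listed plus-strand members (65.1%), in 9 of 14 of plus-strand members at neither age (64.3%) and in 36 of 60 of minus-strand members (60.0%), beside 35.7% of all 32851 promoters. CCGGAA was present in 46.5%, 64.3% and 43.3% of these groups, beside 14.9% of all promoters. GCATGCGC was present in 11.6%, 14.3% and 10.0%, beside 2.71%.

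The other motifs varied between the groups, here in the same order. TATAAA was found in 11.6%, 7.14% and 11.7% of promoters, beside 13.6% of all, and CCAAT in 32.6%, 35.7% and 28.3%, beside 37.4%. AAGATGG was found in 4 of 43, 0 of 14 and 12 of 60, beside 6.34% of all promoters. TGACGTCA was found in 1, 0 and 3 promoters of these groups, beside 1.79%. TAACNG was found in 8 of 43, 7 of 14 and 12 of 60, beside 23.3%. A match is a run of letters and says nothing of whether the factor was bound.

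Genes of the same machinery whose symbols the rule does not take were counted in the same way, from a fixed list of 73. By name, 23 of them (31.5%) were listed at P28, 29 (39.7%) at P28.5 and 20 (27.4%) at both ages, beside 16.8%, 11.6% and 8.48% of all genes. On the plus strand these were 21 (48.8%), 26 (60.5%) and 18 (41.9%) of 43, beside 26.0%, 20.4% and 14.8%. Of those found in a single list, 9 were in the later list (75.0%) and 3 in the earlier one. These are few genes, and the later list held 27.3% of all protein-coding genes found in a single list, or 33.1% on the plus strand.

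Several of them complete complexes described above, and only some of the 73 are named here. On the plus strand 14 of 43 were at neither age, Twistnb and Crcp among them. Of the minus-strand genes, Cd3eap was listed at both ages, and Znrd1 had a listed position nearby at both. Ercc2, the TFIIH helicase, was listed at both ages, and Ercc3, the TFIIH translocase, which lies on the plus strand, at neither. Ccnh and Mnat1, partners of the TFIIH kinase, also lie on the plus strand and were at neither age. Of the Mediator kinase module, the kinase Cdk19 was listed at both ages and the kinase Cdk8 at P28.5 only, while their cyclin, the plus-strand gene Ccnc, was at neither. Among elongation factors, Paf1, Ctr9 and Leo1 of the PAF complex were listed at both ages and Rtf1 at P28.5 only. Nelfcd and Nelfe of the pausing factor NELF, Ell and Ell2, and Hexim1, an inhibitor of the elongation kinase P-TEFb, were listed at both ages. Ccnt2 and Iws1 were too, while Tcea1 was listed at P28.5 only and Tcea2 at P28 only. The plus-strand genes Eaf1 and Tcea3 were at neither age. Cdc73, Wdr61, Nelfa, Nelfb, Cdk9 and Ccnt1 lie on the minus strand and were not listed. Rrn3, which brings polymerase I to its promoter, and Maf1, the repressor of polymerase III, were also listed at both ages. Dr1, a repressor that binds TBP, was listed at both ages, and Btaf1, the ATPase that removes TBP from DNA, at P28 only. Tbpl1 lies on the minus strand, was not listed, and no position in either list came within 2000 bp of its starts.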

How the data were processed

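The authors aligned CUT&RUN reads to mm10, and the submitters' processing notes name Bowtie2, SAMtools and deepTools. They took the ARID2 signal relative to the control without IgG, averaged replicates and clustered RefSeq TSSs by k-means. The deposited lists hold the TSSs of the ARID2-occupied cluster at each age, as positions and symbols that are not counts, signal or scores. The lists carry no depth, and signal tracks were not used here.

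Listed symbols were looked up by name, or by a synonym belonging to a single gene, in the RefSeq annotation of GRCm38.p6. Of 4095 symbols at P28, 4085 matched, and of 2707 at P28.5, 2702. Positions were compared with annotated transcript ends as deposited, within 2000 bp, and starts on the other strand were taken within 1000 bp. CpG windows were 500 bp on either side. Complexes were assigned from subunit function. Shares are descriptions beside all protein-coding genes. Motif shares stand beside all promoters, which come from 27025 genes and so from more than the protein-coding genes. Python 3.11.15 and matplotlib 3.10.9 were used, and matching functions were tested on simulated data.

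The members and lists were chosen with earlier results of these data known. Genes named were those listed by name, those with a listed position within 2000 bp, X-linked members, largest polymerase subunits and germ-cell paralogs. Plus-strand members at neither age, the other genes of the machinery and the minus-strand gene Taf1c were named after their values were seen. Alternatives were the way a gene was matched, the members counted, the distance and the CpG window.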

Additional observations from a re-analysis of the deposited data

How the results depend on the processing

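Counts of listed members were recomputed with symbols as written, by any listed position within 2000 or 500 bp of a 5′ end, by own-name positions within 2000 bp, and for plus-strand or autosomal members alone. They were also recomputed with GENCODE M21 5′ ends, an alternative added after seeing the data. Under these the counts stayed within 1.5 times those reported at P28, P28.5 and both ages. For plus-strand or autosomal members alone this was fixed in advance, since nearly all listed members were on the plus strand and none was X-linked. Counting only members with at least 2 distinct listed positions gave 12 (10.5%) at P28, 11 (9.65%) at P28.5 and 7 (6.14%) at both ages. Over all protein-coding genes these shares were 7.19%, 5.68% and 4.01%, so members stood closer to all genes than in the main counts. The lower counts follow from the construction, since most listed genes have a single position. Members with a listed position near a 5′ end at either age numbered 51 (44.7%) within 2000 bp, 50 (43.9%) within 500 bp and 53 (46.5%) within 5000 bp, beside 21.1%, 20% and 22.5% of all protein-coding genes. The median CpG ratio of listed plus-strand members was 0.896 in the 250 bp window and 0.664 in the 1000 bp window, both within 1 SD over members of the value reported. Plus-strand members at neither age had medians of 0.679 and 0.576 in these windows, so the gap was wider in the shorter one. No paired analysis was possible because the lists used hold averaged replicates, and tracks of single replicates were not used here. The lists hold no signal or depth, so how near a member that was not listed came to the cluster cannot be read from them.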
